A study of Mus musculus with 24 samples.

Results

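Rab GTPases are small switch proteins that mark the membranes of a cell. Each Rab sits on its own compartment in its GTP-bound form, where it recruits motors, tethers and fusion factors, and returns to the cytosol bound to a GDP dissociation inhibitor (GDI) after a GTPase-activating protein (GAP) has made it hydrolyse GTP; a guanine nucleotide exchange factor (GEF) loads it again. In adipocytes they are known for the insulin-driven delivery of the glucose transporter Glut4 to the cell surface, in which Rab10 takes part, and for a place on lipid droplets, where Rab18 is found. The members described here are the Rab genes with a numbered name, an optional letter and a value above 0 in every one of the 24 libraries. There were 22 of them, out of 58 rows of the table with such a name and out of 5035 genes complete in all libraries. The other 36 rows were left out, 2 of them without any value, so that low Rabs, among them Rab5a with 23 of 24 values, are not described. This selection used presence, not a difference between groups.

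Ribosome footprints (RPF, fragments of RNA that a ribosome shields) and RNA were read in cells and fat of C57BL/6 mice. Primary cells of the stromal vascular fraction came from interscapular brown fat and from subcutaneous white fat, and were taken as preadipocytes (day 0) or, after induction with insulin, dexamethasone, isobutylmethylxanthine and rosiglitazone, as adipocytes (day 5). Interscapular BAT and epididymal WAT (eWAT) came from male mice of 6 weeks, which were older than the donors of the cultures. The sex of the culture donors is not given in the sources used here. Tissue was pooled from 3 mice, so that the spread of a tissue is between pools. Both tissues were taken from the same mice and each pool was divided between the assays, but whether equal replicate numbers mark 1 pool is not given in the sources used here. Each assay had 2 libraries for each of the 6 groups. No genotype or drug other than the induction cocktail was varied. The labels do not say whether the duplicates of a culture were separate cultures, and p-values then measure only the spread between these libraries. White cultures and eWAT come from different depots, and the footprint libraries of tissues ran on another lane than those of cultures. Lane, donor age and source therefore cannot be told apart in levels set across them.

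Values are RPKM, read counts scaled to the length of the coding sequence and to the mapped reads of a library, and translation efficiency (Eff) is RPF RPKM over RNA RPKM. The mapped reads recovered from the steps of the RPKM ranged from 217395 to 1765714 in the footprint libraries and from 3757577 to 12307821 in those of RNA. The brown preadipocyte footprint libraries were the shallowest, with 242425 and 217395 reads. In them a Rab had 4 to 59 footprints and 9 of the 22 had fewer than 10 in a library, against 4 to 137 footprints and 2 members in white preadipocytes. Duplicates correlated at r = 0.954 to 0.987 in RPF and 0.988 to 0.997 in RNA across genes, which are not independent replicates. Of 6 adipocyte markers 5 were complete, and their summed RPF was 1464 and 1915 RPKM in brown preadipocytes and 49238 and 49900.4 in brown adipocytes. The white cultures went from 4408 and 4595 to 47049.6 and 45499 RPKM. Fabp4 made up most of these sums. In RNA the order of the preadipocytes was the reverse, with sums of 432 and 451 RPKM in brown and 149 and 134 in white. None of the 5 brown adipocyte markers, Ucp1 among them, was complete, so the brown identity was not checked. Genes that rose most in RNA by day 5 (a log2 rise of 6 or more, 9 genes in brown and 20 in white) had a median day 0 RPF of 4.07% of day 5 in brown and 8.16% in white, against 0.75% and 0.464% in RNA. With that excess of day 5 values subtracted from the day 0 footprints, the counts of members that passed stayed within 1.5 times and 3 calls were lost, those of Rab21 at day 0 in RPF and Eff and that of Rab4b in the RPF lineage comparison. In whole tissue, fewer cells of a type and less RNA per cell cannot be told apart.

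All 22 coding sequences, taken from GENCODE M21 on GRCm38, hold the codons of the phosphate-binding loop that clasps the nucleotide, found by translating each frame and searching the loop pattern of GTPases. They run from 585 to 780 bases. The loops of 4 close pairs are shown, with the bases that differ within a pair in capitals. They do not tell how far reads of near relatives can be separated, for which whole coding sequences were compared below.
Rab1: ggCgaTtcTggGgtTggAaagtcC
Rab1b: ggTgaCtcCggCgtGggCaagtcG
Rab5b: ggAgagtctgcAgtgggGaagtcT
Rab5c: ggCgagtctgcCgtgggCaagtcC
Rab8a: ggggactcgggGgtAggGaagacc
Rab10: ggggactcgggAgtGggCaagacc
Rab11a: ggAgaTtcTggtgtTggAaagagT
Rab11b: ggGgaCtcAggtgtAggTaagagC
Rab1 and Rab1b differed at 7 of 24 loop bases, Rab11a and Rab11b at 6, Rab5b and Rab5c at 4, and Rab8a and Rab10 at 3.

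Windows of 28 bases, about the length of a footprint, were compared with every other gene's transcripts. Among the members only Rab1, Rab1b and Rab10 shared a window with another member. Rab1 and Rab1b shared 11 windows, the longest common stretch being 38 bases, and Rab1 and Rab10 shared 8, the longest being 35. These stretches are shown in capitals with their neighbouring bases in Rab1.
Rab1 and Rab1b: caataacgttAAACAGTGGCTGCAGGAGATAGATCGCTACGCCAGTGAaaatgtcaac
Rab1 and Rab10: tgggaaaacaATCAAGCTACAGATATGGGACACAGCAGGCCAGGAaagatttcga
Pseudogenes and overlapping transcripts shared more. Of the windows of Rab11b, 95.1% also lay in Rab11b-ps2, of Rab4b 93.0% in another annotated transcript, mainly Gm21983, of Rab5b 82.0%, mainly in Gm13991, and of Rab7 66.5% in Rab7-ps1. Rab2a, Rab9, Rab6a and Rab11a shared between 12.8% and 41.3% with pseudogenes or predicted genes, and 10 members shared none. The authors allowed a single site per read on the most abundant isoforms, and whether these copies were in that reference is not given in the sources used here, so the levels of Rab11b, Rab4b, Rab5b and Rab7 are uncertain.

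In both assays most of the Rabs were above the median gene. The summed RPF of the 22 members was 2389.8 RPKM for brown and 3235 for white preadipocytes, 3230.2 in brown and 2533 in white adipocytes, 2483 in BAT and 2899 in eWAT, as means of 2 libraries. Between 18 and 19 members exceeded the all-gene median of a group in RPF and 18 to 22 in RNA. Rab7, which directs late endosomes to lysosomes, had the highest mean RPF in 5 groups, and Rab1 in white preadipocytes. The lowest mean RPF belonged to Rab4b in 4 groups, to Rab12 in brown preadipocytes and to Rab32 in white adipocytes. Members varied less over the groups than genes at large: the median SD of the log2 group means was 0.48 for the members and 0.63 for all genes in RPF, and 0.29 and 0.53 in RNA, with 5 and 2 members above the all-gene median. Rab32 varied most, at 1.32 in RPF and 1.35 in RNA. Rab7 was the steadiest in RPF (0.16) and Rab5c in RNA (0.14). These spreads are descriptions without a test, and the members were not set against genes of like level.

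During brown adipogenesis more Rabs rose than fell in footprints, while more of all genes fell than rose. During white adipogenesis more fell than rose, both among the Rabs and among all genes. Differences are log2 RPKM of day 5 minus day 0, and a gene passed at a Benjamini-Hochberg adjusted p under 0.05 in limma's moderated test over all 5035 genes, with n = 2 libraries a group. In brown RPF, 9 of 22 were higher and 3 lower, where 26.0% and 34.7% of all genes passed, and the median log2 difference was 0.34 for the members and -0.16 for all genes. In brown RNA, 6 of 22 were higher and 8 lower, where 29.7% and 44.9% of all genes passed, and the median log2 difference was -0.17 for the members and -0.20 for all genes. In white RPF, 2 of 22 were higher and 9 lower, where 16.7% and 36.1% of all genes passed, and the median log2 difference was -0.50 for the members and -0.38 for all genes. In white RNA, 4 of 22 were higher and 15 lower, where 27.5% and 53.4% of all genes passed, and the median log2 difference was -0.53 for the members and -0.37 for all genes. Rab1b, Rab5b, Rab10, Rab14, Rab6a, Rab12, Rab5c, Rab11a and Rab11b rose in brown RPF, and Rab4b, Rab32 and Rab21 fell. The Rab11b call was lost in 11 alternatives, with voom (adjusted p = 0.132), with the brown groups alone (adjusted p = 0.125) and without any of 9 libraries. In white RPF Rab1b and Rab5b rose, and Rab32, Rab21, Rab1, Rab8a, Rab9, Rab11a, Rab18, Rab11b and Rab12 fell. The Rab11b call was lost under median-of-ratios scaling (adjusted p = 0.358) and without any single white RPF library. The Rab12 call was lost in 11 alternatives, with voom (adjusted p = 0.0696), median-of-ratios scaling (0.35), the white groups alone (0.052), the replicate block (0.0604) and without any of 7 libraries. The authors' scaling puts the median of all genes below 0 here, and median-of-ratios scaling moved it by 0.34 in white RPF and 0.30 in white RNA, and by 0.14 and 0.18 in brown. It moved the share of higher genes among all calls from 31.7% to 49.7% in white RPF, 34.0% to 47.4% in white RNA and 39.8% to 50.2% in brown RNA, and it called 12 higher and 3 lower in brown RPF, 7 higher and 7 lower in brown RNA, 2 higher and 4 lower in white RPF and 6 higher and 10 lower in white RNA. Without white preadipocyte RPF replicate 1, 7 members passed in white RPF in place of 11.

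**Figure D1:**
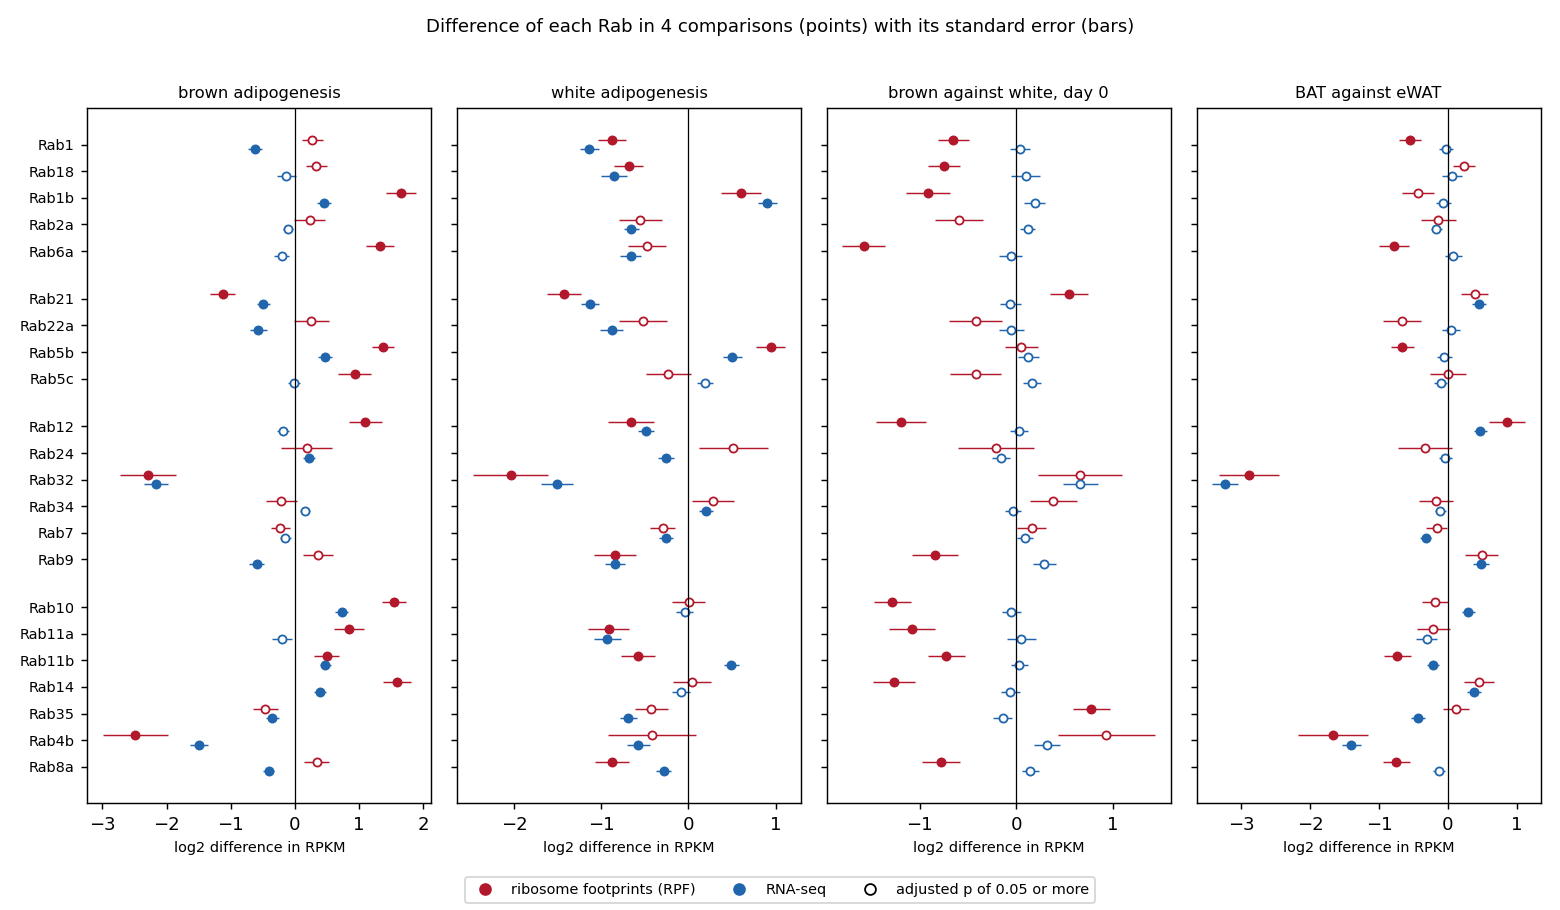
Log2 difference in RPKM (x axis) of each of the 22 Rabs (y axis, grouped by compartment: Golgi, early endosome, late endosome and lysosome, recycling) in 4 comparisons, with red points for RPF, blue for RNA, bars for the standard error and open points where the adjusted p was 0.05 or more. In the panel of brown against white at day 0, 11 filled red points lie left of 0 and no blue point is filled.

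The day 5 change itself was compared between the lineages as brown change minus white change. The summed RPF of the 7 fibroblast and preadipocyte markers went from 19137 and 19397 to 1754 and 1842 RPKM in brown. In white it went from 11015 and 11415 to 5666 and 5896. All 7 were lower at day 5 in brown. In white Col1a1, Pdgfrb and Thy1 were lower, Dcn was higher, and Pdgfra, Col3a1 and Dpt overlapped. The macrophage marker Lyz2 went from 74.0 and 41.3 to 43.2 and 37.9 in brown and from 254 and 205 to 240.5 and 231 in white. The part of these markers in the comparison was not tested. In RPF, 12 of 22 were higher and 1 lower, where 20.0% and 11.3% of all genes passed, and the median log2 difference was 1.03 for the members and 0.20 for all genes. In RNA, 8 of 22 were higher and 2 lower, where 21.6% and 13.7% of all genes passed, and the median log2 difference was 0.30 for the members and 0.08 for all genes. In Eff, 7 of 22 were higher and 0 lower, where 9.79% and 5.78% of all genes passed, and the median log2 difference was 0.56 for the members and 0.08 for all genes. Rab6a, Rab12 and Rab11a had the highest RPF values, at 1.799 ± 0.31 (SE, adjusted p = 0.00118), 1.75 ± 0.37 (SE, adjusted p = 0.00371) and 1.75 ± 0.33 (SE, adjusted p = 0.00199). Rab14, Rab10, Rab8a, Rab9, Rab5c, Rab1, Rab11b, Rab1b and Rab18 also had a higher RPF change in brown, and Rab4b alone had a lower one, at -2.07 ± 0.72 (SE, adjusted p = 0.0432), a call lost once an estimated day 5 part was subtracted from the day 0 libraries, when only the culture groups were fitted, or without any of 10 of the 12 libraries. Rab1b differed in sign between the assays, with 1.05 ± 0.32 (SE, adjusted p = 0.0261) in RPF and -0.45 ± 0.15 (SE, adjusted p = 0.035) in RNA. Each of these calls was lost in 6 alternatives, the RPF call with the culture groups alone, with median-of-ratios scaling and without any of 4 libraries, and the RNA call without any of 6 libraries. Median-of-ratios scaling moved the all-gene median by -0.20 in RPF and -0.12 in RNA and the share of higher genes among all calls from 63.9% to 49.6% and from 61.2% to 46.3%, and called 10 higher and 1 lower in RPF and 6 higher and 3 lower in RNA. In RNA the 10 calls became 6 without brown preadipocyte replicate 1 and 5 without brown preadipocyte replicate 2, brown adipocyte replicate 2 or white preadipocyte replicate 1, and in Eff the 7 became 4 without brown adipocyte RNA replicate 1 or white preadipocyte RNA replicate 2 and 3 without white adipocyte RNA replicate 2.

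**Figure D2:**
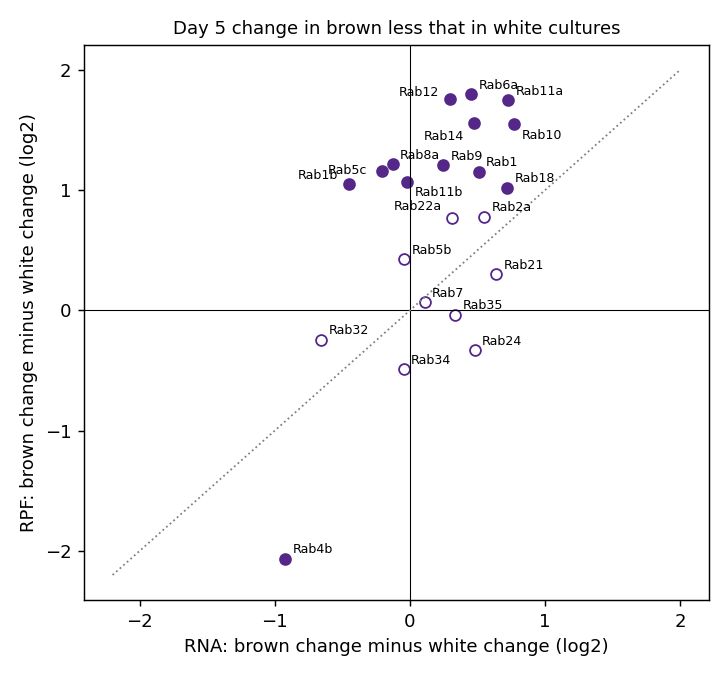
Brown day 5 change minus white day 5 change, log2, in RNA (x axis) and in RPF (y axis), 1 point per Rab, filled where the RPF difference passed at an adjusted p under 0.05, with a dotted line of equal values. The 12 filled points above 0 lie above the dotted line, and Rab4b lies alone at the lower left.

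At day 0 brown and white cells differed in the footprints of 13 Rabs and in the RNA of none by the test. At day 0, in brown against white RPF, 2 of 22 were higher and 11 lower, where 12.4% and 24.9% of all genes passed, and the median log2 difference was -0.62 for the members and -0.18 for all genes. In RNA, 0 of 22 were higher and 0 lower, where 2.90% and 0.854% of all genes passed, and the median log2 difference was 0.05 for the members and 0.01 for all genes. Although limma called no member in RNA, 3 had an unadjusted p under 0.05 and voom on the recovered reads called 1, Rab32, and 2 passed when one or the other BAT library was left out. In Eff, 2 of 22 were higher and 11 lower, where 10.9% and 22.2% of all genes passed, and the median log2 difference was -0.70 for the members and -0.20 for all genes. Rab6a, Rab10, Rab14, Rab12, Rab11a, Rab1b, Rab9, Rab8a, Rab18, Rab11b and Rab1 were lower in brown RPF, and Rab35 and Rab21 higher. The libraries of brown and white preadipocytes did not overlap in RPF for 13 members that were lower and 4 that were higher in brown, against 41.0% and 24.7% of all genes. In RNA they did not overlap for 3 lower and 9 higher members, against 27.8% and 31.9% of all genes. These brown libraries are the shallow ones named above, and voom, which weights a value by its reads, called 8 members in RPF (1 higher and 7 lower) and 12 in Eff (1 higher and 11 lower). Without white preadipocyte RPF replicate 1, 7 passed in RPF. Median-of-ratios scaling moved the all-gene median by 0.16 in RPF and 0.16 in Eff and the share of higher genes among all calls from 33.3% to 47.7% and from 32.9% to 45.7%, with the members still at 2 higher and 11 lower in both. Of 7 fibroblast and preadipocyte markers, Col1a1 and Col3a1 were higher in the brown than in the white RPF libraries, Pdgfra, Thy1, Dcn and Dpt were lower, and Pdgfrb overlapped. Their summed RPF, most of it from the 2 collagens, was 19137 and 19397 RPKM in brown and 11015 and 11415 in white. Lyz2, the only 1 of 10 macrophage and leukocyte markers among the genes analysed, was at 74.0 and 41.3 RPKM in brown and 254 and 205 in white. The part of depth and of these markers in the Rab difference was not tested.

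At day 5 the brown and white adipocytes were compared in the same way. In brown against white RNA, 11 of 22 were higher and 1 lower, where 32.0% and 19.9% of all genes passed, and the median log2 difference was 0.29 for the members and 0.08 for all genes. In RPF, 2 of 22 were higher and 0 lower, where 5.48% and 8.26% of all genes passed, and the median log2 difference was 0.35 for the members and 0.08 for all genes. In Eff, 0 of 22 were higher and 0 lower, where 2.24% and 5.16% of all genes passed, and the median log2 difference was 0.00 for the members and -0.08 for all genes. Rab18, Rab11a, Rab10, Rab2a, Rab21, Rab1, Rab9, Rab14, Rab6a, Rab12 and Rab24 were higher in brown RNA and Rab4b was lower. The brown RPF values of Rab21 and Rab35 were higher, at 0.85 ± 0.19 (SE, adjusted p = 0.0113) and 0.74 ± 0.19 (SE, adjusted p = 0.0227). For Eff, limma's count of 0 goes with 3 members at an unadjusted p under 0.05 and with 1 called by voom, and 1 or 2 passed without a brown preadipocyte RPF library or without white adipocyte RPF replicate 1. In RPF, voom called 6 and all were higher. The 2 calls became 5 when one or the other brown preadipocyte RPF library was left out, 0 without brown adipocyte replicate 1, and 1 without brown adipocyte replicate 2 or white adipocyte replicate 1. Median-of-ratios scaling moved the all-gene RNA median by -0.12 and the share of higher genes among all calls from 61.7% to 47.3% in RNA and 30.3% to 43.4% in Eff, and called 8 higher and 2 lower in RNA.

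In BAT against eWAT, in RPF, 1 of 22 were higher and 7 lower, where 11.6% and 28.1% of all genes passed, and the median log2 difference was -0.20 for the members and -0.31 for all genes. In RNA, 5 of 22 were higher and 5 lower, where 19.1% and 50.2% of all genes passed, and the median log2 difference was -0.06 for the members and -0.30 for all genes. In Eff, 0 of 22 were higher and 0 lower, where 3.12% and 0.933% of all genes passed, and the median log2 difference was -0.06 for the members and 0.01 for all genes. Rab12 was higher in BAT RPF, and Rab32, Rab4b, Rab6a, Rab8a, Rab11b, Rab5b and Rab1 were lower. Rab9, Rab12, Rab21, Rab14 and Rab10 were higher in BAT RNA, and Rab32, Rab4b, Rab35, Rab7 and Rab11b were lower. With the tissues alone the RNA calls of Rab10 (adjusted p = 0.114), Rab14 (0.0529), Rab7 (0.0705) and Rab11b (0.239) were lost. That of Rab11b was also lost with voom (0.0538), with the replicate block (0.054) and without most single RNA libraries. Its RNA value turned to 0.04 under median-of-ratios scaling. For Eff, limma's 0 calls stand beside 8 members at an unadjusted p under 0.05 and 1 called by voom, Rab6a at -0.87 (adjusted p = 0.0232), which also passed with the replicate number as a block (-0.86, adjusted p = 0.0497), and 2 passed without BAT RPF replicate 2 or either brown preadipocyte RPF library. The scaling set the direction of the RPF count: median-of-ratios scaling moved the all-gene median by 0.27 in RPF and 0.26 in RNA and the share of higher genes among all calls from 29.3% to 51.4% and from 27.5% to 46.2%, and called 5 higher and 2 lower in RPF and 7 higher and 2 lower in RNA. Rab32, Rab4b and Rab12 kept their calls in both assays under it. The RPF call of Rab4b was lost without either BAT library or without eWAT replicate 1, and that of Rab12 without BAT replicate 2 or eWAT replicate 2. In RPF 4, 5, 3 and 5 members passed without BAT replicate 1, BAT replicate 2, eWAT replicate 1 and eWAT replicate 2.

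Of the 5 Rabs of the endoplasmic reticulum and Golgi, 2 rose in brown RPF and none fell, where 26.0% and 34.7% of all genes passed, and 4 were lower in brown than in white preadipocyte RPF, where 24.9% of all genes were. Rab1b, which with Rab1 drives transport from the endoplasmic reticulum to the Golgi, had an RPF of 54.5 and 83.6 RPKM in brown and 158 and 103 in white preadipocytes, 231 and 196 in adipocytes of the brown and 183 and 204 of the white lineage, 210.2 and 251 in BAT and 308 and 313 in eWAT. Its RNA was 124 and 129 RPKM in brown and 121 and 102 in white preadipocytes, and 184 and 164 in adipocytes of the brown and 205 and 212 of the white lineage. BAT had 207 and 248 and eWAT 237 and 236. Brown preadipocytes had the lowest pair in RPF and eWAT the highest, and both brown adipocyte libraries lay above both brown preadipocyte libraries in either assay. The RPF rise was 1.65 ± 0.23 (SE, adjusted p = 3.19e-05) in brown and 0.61 ± 0.23 (SE, adjusted p = 0.0393) in white, and the RNA rise 0.45 ± 0.11 (SE, adjusted p = 0.0019) and 0.91 ± 0.11 (SE, adjusted p = 4.5e-06), all by limma with n = 2.

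Rab1 changed in the opposite sense in RNA. Its RPF was 247 and 239 RPKM in brown and 409 and 355 in white preadipocytes, 306 and 282 in adipocytes of the brown and 245 and 175 of the white lineage, 224 and 198 in BAT and 319 and 300.0 in eWAT. Its RNA was 305 and 302 RPKM in brown and 309 and 282 in white preadipocytes, and 194 and 199 in adipocytes of the brown and 140.4 and 128 of the white lineage. BAT had 218 and 180.2 and eWAT 188 and 217. The highest RNA pairs were those of preadipocytes, and the white adipocyte pair lay below all the others in RNA. In RNA it fell in brown (-0.63 ± 0.11 SE, adjusted p = 0.000135) and in white (-1.14 ± 0.11 SE, adjusted p = 4.63e-07), while in RPF it fell in white only by the test, at -0.88 ± 0.16 (SE, adjusted p = 0.000468) against 0.27 ± 0.16 (SE, adjusted p = 0.158) in brown, and the brown change exceeded the white one by 1.15 ± 0.23 (SE, adjusted p = 0.00246).

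Rab6a, which acts in retrograde traffic through the Golgi, had an RPF of 46.1 and 29.4 RPKM in brown and 115 and 105 in white preadipocytes, 94.0 and 90.5 in adipocytes of the brown and 89.6 and 70.0 of the white lineage, 55.2 and 47.9 in BAT and 88.7 and 88.3 in eWAT. Its RNA was 69.8 and 74.5 RPKM in brown and 78.5 and 71.8 in white preadipocytes, and 66.5 and 58.7 in adipocytes of the brown and 44.1 and 51.0 of the white lineage. BAT had 61.8 and 53.7 and eWAT 50.6 and 58.7. The brown preadipocyte footprints lay below those of every other group, with 7 and 4 reads behind them, while the RNA of brown and white preadipocytes overlapped. The RPF difference at day 0 was -1.58 ± 0.22 (SE, adjusted p = 0.000193) and that of Eff -1.52 ± 0.26 (SE, adjusted p = 0.000189), the lowest of the members in both. The brown RPF rise was 1.32 ± 0.22 (SE, adjusted p = 0.000182) with RNA at -0.21 ± 0.12 (SE, adjusted p = 0.128), and Eff rose by 1.53 ± 0.26 (SE, adjusted p = 0.000149), the highest of the members.

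Rab18, which localises to the endoplasmic reticulum and lipid droplets, had an RPF of 159.7 and 141 RPKM in brown and 237 and 268 in white preadipocytes, 179.9 and 199 in adipocytes of the brown and 179 and 137 of the white lineage, 166 and 187 in BAT and 152 and 147 in eWAT. Its RNA was 148 and 144 RPKM in brown and 137 and 136 in white preadipocytes, and 128 and 139 in adipocytes of the brown and 75.4 and 75.6 of the white lineage. BAT had 147 and 94.9 and eWAT 111 and 116. White adipocytes had the lowest RNA pair and white preadipocytes the highest RPF pair. It fell in white RPF (-0.69 ± 0.16 SE, adjusted p = 0.00317) and white RNA (-0.85 ± 0.15 SE, adjusted p = 0.000152), and in brown it was at 0.33 ± 0.16 (SE, adjusted p = 0.0929) in RPF and -0.13 ± 0.15 (SE, adjusted p = 0.427) in RNA. Between the tissues its RNA turned sign with a single library: 0.06 ± 0.15 with all libraries and -0.26 without BAT replicate 1. Rab2a, which acts between the endoplasmic reticulum and the Golgi, passed in no RPF comparison by limma over all groups, though white RPF passed with voom (-0.54, adjusted p = 0.0155) and with the white groups alone (-0.55, adjusted p = 0.0124), as did the RPF lineage comparison with voom (0.76, adjusted p = 0.0488). It fell in white RNA, at -0.65 ± 0.08 (SE, adjusted p = 7.01e-06).

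Rab5b was the early endosome Rab with the highest footprint values in adipocytes. Rab5 proteins drive the fusion of endocytic vesicles. Its RPF was 115 and 121 RPKM in brown and 104 and 124 in white preadipocytes, 293 and 317 in adipocytes of the brown and 202 and 235 of the white lineage, 72.4 and 94.5 in BAT and 135 and 126 in eWAT. Its RNA was 59.4 and 64.8 RPKM in brown and 53.1 and 61.0 in white preadipocytes, and 82.9 and 88.0 in adipocytes of the brown and 75.0 and 86.8 of the white lineage. BAT had 89.8 and 81.6 and eWAT 92.9 and 84.8. Both adipocyte pairs lay above all other RPF pairs, while in RNA the adipocyte and tissue libraries overlapped. RPF rose by 1.37 ± 0.17 (SE, adjusted p = 1.24e-05) in brown and 0.94 ± 0.17 (SE, adjusted p = 0.000434) in white, RNA by 0.46 ± 0.11 (SE, adjusted p = 0.00179) and 0.50 ± 0.11 (SE, adjusted p = 0.000843), and Eff rose in brown by 0.91 ± 0.21 (SE, adjusted p = 0.00212) with 0.44 ± 0.21 (SE, adjusted p = 0.134) in white. Its log2 Eff was 1.83 in brown and 1.43 in white adipocytes, the highest member in both, and -0.04 in BAT and 0.56 in eWAT. Most of its coding windows also lie in a predicted gene, as given above.

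Rab21, which takes part in integrin endocytosis, went the other way. Its RPF was 124 and 131 RPKM in brown and 81.0 and 93.0 in white preadipocytes, 66.8 and 50.6 in adipocytes of the brown and 29.9 and 34.7 of the white lineage, 93.5 and 88.2 in BAT and 75.3 and 64.1 in eWAT. Its RNA was 117 and 101 RPKM in brown and 108 and 118 in white preadipocytes, and 76.7 and 78.1 in adipocytes of the brown and 50.8 and 52.9 of the white lineage. BAT had 104 and 88.5 and eWAT 72.7 and 68.0. Both lineages had lower pairs at day 5 than at day 0 in both assays, without overlap, and white adipocytes were lowest. RPF fell by 1.13 in brown (SE 0.19, adjusted p = 0.000225) and dropped by 1.43 in white (SE 0.19, adjusted p = 4.07e-05) on the log2 scale. Its higher brown RPF at day 0, 0.55 ± 0.19 (SE, adjusted p = 0.0407), did not pass with voom (0.54, adjusted p = 0.144) or with the day 5 part subtracted (adjusted p = 0.0628). Rab5c rose in brown RPF (0.93 ± 0.26 SE, adjusted p = 0.00781) with RNA at -0.02 ± 0.09, and Rab22a, of early and recycling endosomes, fell in RNA in both lineages (-0.57 ± 0.13 and -0.88 ± 0.13) and passed in no RPF comparison.

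Of the 7 recycling and exocytic Rabs, 4 rose in brown RPF and 1 fell, where 26.0% and 34.7% of all genes passed. None rose and 3 fell in white RPF, against 16.7% and 36.1% of all genes. In preadipocyte RPF 5 were lower and 1 higher in brown than in white, against 24.9% and 12.4%. Rab10 is the Rab known to bring Glut4 vesicles to the plasma membrane of adipocytes. Its RPF was 75.4 and 107 RPKM in brown and 197 and 243 in white preadipocytes, 264 and 261 in adipocytes of the brown and 211 and 227 of the white lineage, 208 and 272 in BAT and 287 and 254.7 in eWAT. Its RNA was 109 and 110.3 RPKM in brown and 118 and 109 in white preadipocytes, and 171 and 192 in adipocytes of the brown and 109 and 111 of the white lineage. BAT had 161 and 137 and eWAT 118 and 123. Brown preadipocytes stood below every other RPF pair, and brown adipocytes above every other RNA pair. RPF rose in brown by 1.55 ± 0.19 (SE, adjusted p = 1.09e-05) and was at 0.00 ± 0.19 in white (adjusted p = 0.995), and RNA rose in brown by 0.73 ± 0.10 (SE, adjusted p = 1.63e-05) with -0.04 ± 0.10 (SE, adjusted p = 0.697) in white. Under median-of-ratios scaling the white RNA value turned to 0.26 (adjusted p = 0.0245).

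Rab14, of the trans-Golgi and endosomes, had a like pattern. Its RPF was 57.4 and 63.99 RPKM in brown and 183 and 116 in white preadipocytes, 210.0 and 159.8 in adipocytes of the brown and 131 and 171 of the white lineage, 186 and 203 in BAT and 143 and 141 in eWAT. Its RNA was 82.8 and 80.0 RPKM in brown and 83.6 and 85.9 in white preadipocytes, and 102 and 111 in adipocytes of the brown and 77.0 and 83.1 of the white lineage. BAT had 126 and 109 and eWAT 95.5 and 84.9. Again the brown preadipocyte footprints were below all others, with 9 reads in each library, while RNA at day 0 spanned 80.0 to 85.9 RPKM over both lineages. RPF rose in brown by 1.60 ± 0.22 (SE, adjusted p = 3.36e-05), against 0.04 ± 0.22 (SE, adjusted p = 0.896) in white, and RNA rose in brown by 0.39 ± 0.10 (SE, adjusted p = 0.00317). Eff rose in brown by 1.21 ± 0.26 (SE, adjusted p = 0.00122).

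Rab8a, a relative of Rab10 in exocytic transport, had an RPF of 92.7 and 73.8 RPKM in brown and 149 and 135 in white preadipocytes, 104 and 105 in adipocytes of the brown and 72.1 and 82.7 of the white lineage, 48.4 and 64.5 in BAT and 86.3 and 102 in eWAT. Its RNA was 104 and 106 RPKM in brown and 94.4 and 95.2 in white preadipocytes, and 76.3 and 82.0 in adipocytes of the brown and 77.3 and 78.4 of the white lineage. BAT had 64.3 and 72.4 and eWAT 73.0 and 76.7. White preadipocytes had the highest RPF pair. It fell in white RPF (-0.88 ± 0.20 SE, adjusted p = 0.00208) and was at 0.34 ± 0.20 (SE, adjusted p = 0.149) in brown RPF, and the difference of these changes was 1.22 ± 0.28 (SE, adjusted p = 0.00564). RNA fell in brown (-0.41 ± 0.09), and in white it was at -0.28 ± 0.09 with the authors' scaling and 0.02 with median-of-ratios scaling.

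Rab11a and Rab11b, both of the recycling endosome, parted in RNA. The RPF of Rab11a was 114 and 70.8 RPKM in brown and 218 and 166 in white preadipocytes, 158 and 164 in adipocytes of the brown and 117 and 87.2 of the white lineage, 112 and 140.3 in BAT and 149 and 140.3 in eWAT. The RNA of Rab11a was 126 and 124 RPKM in brown and 127 and 114 in white preadipocytes, and 101 and 117 in adipocytes of the brown and 63.3 and 63.1 of the white lineage. BAT had 104 and 76.2 and eWAT 95.3 and 127. White adipocytes were lowest in RNA, and in RPF the pairs of brown preadipocytes and white adipocytes overlapped at the bottom. It rose in brown RPF by 0.84 ± 0.23 (SE, adjusted p = 0.00753), a call lost without brown preadipocyte RPF replicate 2, and fell in white RPF (-0.91 ± 0.23) and white RNA (-0.93 ± 0.15 SE, adjusted p = 8.83e-05). Rab11b had RPF values of 75.5 and 119 RPKM in brown and 157 and 156 in white preadipocytes, 134 and 133 in adipocytes of the brown and 101 and 110.0 of the white lineage, 86.7 and 95.0 in BAT and 155 and 147 in eWAT. Rab11b had RNA values of 93.0 and 89.6 RPKM in brown and 90.8 and 87.7 in white preadipocytes, and 124 and 129 in adipocytes of the brown and 119 and 132 of the white lineage. BAT had 117 and 131 and eWAT 144 and 143. Its RNA was higher at day 5 than at day 0 in both lineages, with no overlap. RNA rose in brown and white by 0.47 ± 0.09 and 0.49 ± 0.09 (adjusted p = 0.000323 and 0.000207), while white RPF fell, -0.57 ± 0.19 (SE, adjusted p = 0.0251). This RPF call was lost under median-of-ratios scaling (-0.23, adjusted p = 0.358) and without any single white RPF library. White Eff fell by 1.07 (SE 0.22, adjusted p = 0.00132).

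Rab4b, of the fast recycling route, was the recycling Rab that fell in brown RPF. Its RPF was 32.2 and 57.4 RPKM in brown and 44.2 and 11.4 in white preadipocytes, 9.49 and 6.2 in adipocytes of the brown and 17.5 and 16.1 of the white lineage, 8.7 and 7.95 in BAT and 32.5 and 21.5 in eWAT. Its RNA was 71.0 and 74.9 RPKM in brown and 61.3 and 55.9 in white preadipocytes, and 30.4 and 22.0 in adipocytes of the brown and 38.6 and 40.1 of the white lineage. BAT had 21.5 and 24.1 and eWAT 57.5 and 62.7. Brown adipocytes and BAT were lowest in RPF, at 4 to 9 reads a library, and their RNA pairs lay below all others. It fell in brown RPF, -2.49 ± 0.51 (SE, adjusted p = 0.000852), and brown RNA, -1.50 ± 0.14 (SE, adjusted p = 3.24e-07), and was lower in BAT than in eWAT, at -1.67 ± 0.51 (SE, adjusted p = 0.0193) in RPF and -1.40 ± 0.14 (SE, adjusted p = 9.67e-07) in RNA. In white it was at -0.42 ± 0.51 (SE, adjusted p = 0.511) in RPF, where the libraries of white preadipocytes were 44.2 and 11.4 RPKM, and fell in RNA, -0.57 ± 0.14 (SE, adjusted p = 0.00162), a call lost under median-of-ratios scaling. The RPF call between the tissues was lost without either BAT library or without eWAT replicate 1.

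Rab35, which recycles cargo from early endosomes to the surface, had an RPF of 129.5 and 129 RPKM in brown and 72.4 and 78.6 in white preadipocytes, 85.5 and 104 in adipocytes of the brown and 49.5 and 63.9 of the white lineage, 59.0 and 56.2 in BAT and 58.8 and 47.9 in eWAT. Its RNA was 45.7 and 53.4 RPKM in brown and 54.9 and 54.0 in white preadipocytes, and 38.6 and 38.7 in adipocytes of the brown and 33.1 and 34.4 of the white lineage. BAT had 36.4 and 40.2 and eWAT 53.0 and 50.2. Brown preadipocytes had the highest RPF pair of the 6 groups and an RNA pair below that of white preadipocytes. RPF at day 0 was higher in brown by 0.78 ± 0.19 (SE, adjusted p = 0.00744) and Eff by 0.92 ± 0.22 (SE, adjusted p = 0.00322), the highest Eff difference of the members. Its log2 Eff there, 1.39, was the highest member value in brown preadipocytes, where the all-gene median was -0.12.

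Among the 6 Rabs of late endosomes, lysosomes and autophagy, Rab32 fell in both lineages and separated the tissues. Rab32 is known from lysosome-related organelles and mitochondria. Its RPF was 73.8 and 82.3 RPKM in brown and 42.2 and 57.2 in white preadipocytes, 28.7 and 8.89 in adipocytes of the brown and 9.29 and 15.4 of the white lineage, 8.31 and 10.97 in BAT and 73.7 and 67.9 in eWAT. Its RNA was 63.0 and 58.2 RPKM in brown and 38.3 and 38.0 in white preadipocytes, and 13.2 and 13.9 in adipocytes of the brown and 14.8 and 12.2 of the white lineage. BAT had 4.1 and 6.81 and eWAT 51.6 and 47.7. Preadipocytes and eWAT were high, and adipocytes and BAT low, with no overlap in either assay. The low RPF values rest on 19 and 6 reads in brown adipocytes, 5 and 4 in white adipocytes and 5 and 13 in BAT. It fell by 2.29 in brown RPF (SE 0.43, adjusted p = 0.0005) and by 2.16 in brown RNA (SE 0.19, adjusted p = 1.84e-07). In white it fell in RPF (-2.04 ± 0.43 SE, adjusted p = 0.00149) and RNA (-1.51 ± 0.19 SE, adjusted p = 6.28e-06). BAT was lower than eWAT, at -2.89 ± 0.43 (SE, adjusted p = 0.000161) in RPF and -3.23 ± 0.19 (SE, adjusted p = 5.8e-09) in RNA, and Eff did not differ by the test (0.34 ± 0.52 SE, adjusted p = 0.836). Lyz2, the one complete gene of 10 macrophage and leukocyte markers, stood at 693 and 682 RPKM in BAT and 1874 and 1431 in eWAT RPF, and 7 fibroblast and preadipocyte markers summed to 3679 and 3686 in BAT and to 7530.2 and 6592 in eWAT. The part of these cells in the tissue difference was not tested.

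Rab7 was high in every group. Its RPF was 377 and 436 RPKM in brown and 327 and 402 in white preadipocytes, 356 and 337 in adipocytes of the brown and 288 and 302 of the white lineage, 396 and 309 in BAT and 395 and 388 in eWAT. Its RNA was 266 and 264 RPKM in brown and 245 and 252 in white preadipocytes, and 225 and 253 in adipocytes of the brown and 204 and 211 of the white lineage. BAT had 232 and 213 and eWAT 277 and 279. The RPF libraries of all groups spanned 288 to 436 RPKM. No RPF or Eff comparison passed the test for it, with log2 RPF differences from -0.30 to 0.23, and its log2 Eff was 0.49 to 0.66 in the 6 groups. In RNA it fell in white (-0.26 ± 0.08 SE, adjusted p = 0.0122) and was lower in BAT (-0.32 ± 0.08 SE, adjusted p = 0.00402), and with median-of-ratios scaling the white value became 0.04 and the tissue value -0.06, adjusted p = 0.523. The white call was lost without white preadipocyte replicate 2 or white adipocyte replicate 1. With the tissues alone the tissue call was also lost (adjusted p = 0.0705).

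Rab12, which acts in the degradation of transferrin receptor, had an RPF of 28.2 and 31.5 RPKM in brown and 81.1 and 57.5 in white preadipocytes, 61.0 and 66.6 in adipocytes of the brown and 40.9 and 45.8 of the white lineage, 44.3 and 59.7 in BAT and 35.6 and 22.7 in eWAT. Its RNA was 77.2 and 73.2 RPKM in brown and 74.1 and 72.7 in white preadipocytes, and 66.8 and 65.2 in adipocytes of the brown and 55.5 and 49.7 of the white lineage. BAT had 91.2 and 90.1 and eWAT 61.7 and 69.4. Its brown preadipocyte footprints rest on 5 reads a library. RPF rose in brown (1.10 ± 0.26 SE, adjusted p = 0.00263) with RNA at -0.19 ± 0.09 (SE, adjusted p = 0.084), and it was the member higher in BAT than eWAT in RPF (0.86 ± 0.26 SE, adjusted p = 0.0202) and also higher in RNA (0.47 ± 0.09 SE, adjusted p = 0.000572). The RPF call between the tissues was lost without BAT replicate 2 or eWAT replicate 2.

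Rab9, which returns cargo from late endosomes to the Golgi, had an RPF of 88.6 and 60.8 RPKM in brown and 136 and 127 in white preadipocytes, 102 and 87.1 in adipocytes of the brown and 70.1 and 76.7 of the white lineage, 64.5 and 92.7 in BAT and 47.3 and 63.9 in eWAT. Its RNA was 127 and 140.4 RPKM in brown and 109 and 109 in white preadipocytes, and 87.5 and 89.3 in adipocytes of the brown and 59.1 and 62.7 of the white lineage. BAT had 123 and 92.1 and eWAT 76.3 and 76.3. White preadipocytes had the highest RPF pair and brown preadipocytes the highest RNA pair. It fell in white RPF (-0.84 ± 0.24 SE, adjusted p = 0.00919), in white RNA (-0.84 ± 0.12 SE, adjusted p = 2.25e-05) and in brown RNA (-0.59 ± 0.12 SE, adjusted p = 0.000526), and was at 0.36 ± 0.24 (SE, adjusted p = 0.206) in brown RPF. Rab24, known from autophagy, passed in no RPF comparison, and Rab34, known from lysosome positioning and cilia, passed in none either. Rab34 RNA rose in white (0.20 ± 0.08 SE, adjusted p = 0.0327), a call lost without either white preadipocyte library or without white adipocyte replicate 2, and passed in brown under median-of-ratios scaling (0.34, adjusted p = 0.0024).

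**Figure D3:**
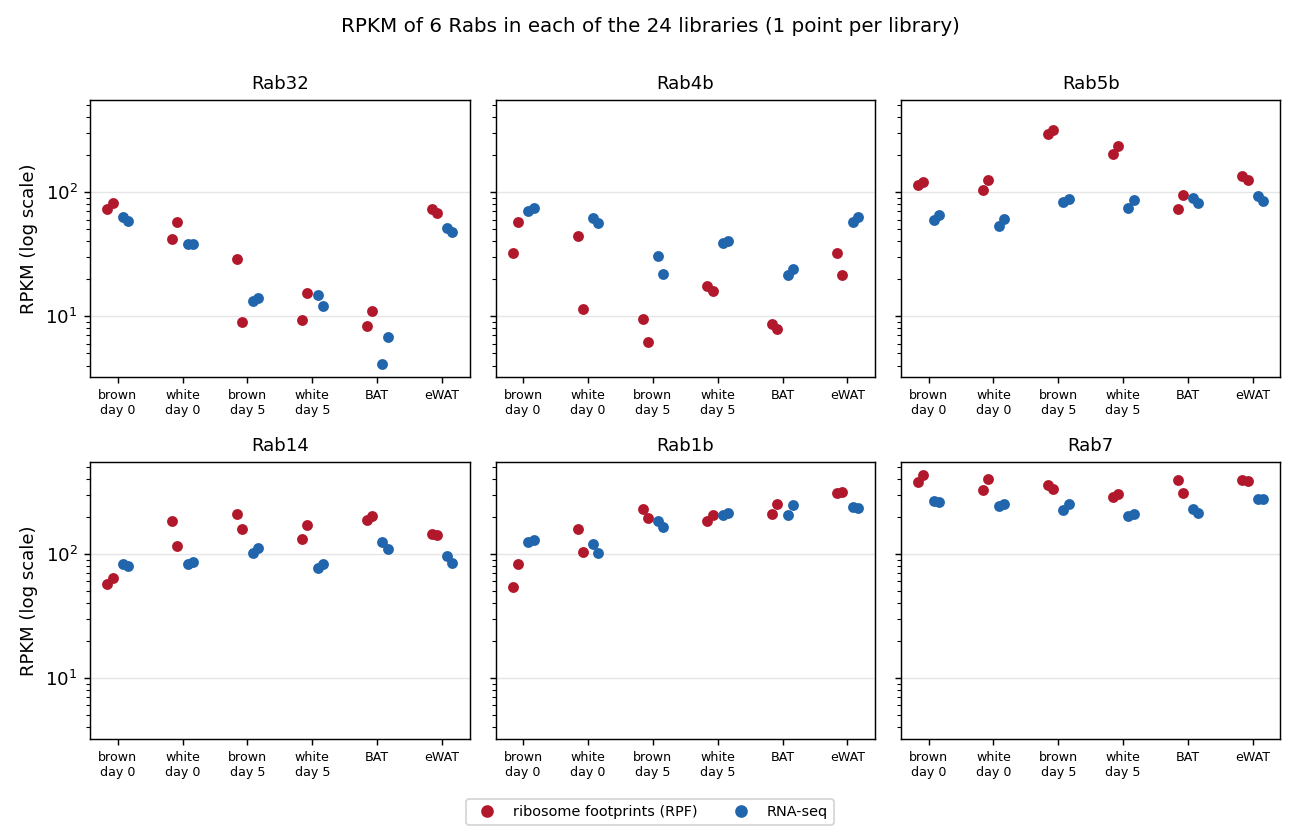
RPKM on a log scale (y axis) of 6 Rabs in the 6 groups (x axis), red points for RPF and blue for RNA, 1 point per library, 2 libraries per group and assay. Rab32 is low in adipocytes and BAT in both colours, Rab5b footprints stand above its RNA in adipocytes and not in BAT, Rab14 and Rab1b footprints are lowest in brown preadipocytes, and Rab7 stays between 288 and 436 RPKM in RPF.

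More members rose in translation efficiency in brown than in white adipogenesis. During brown adipogenesis, in Eff, 12 of 22 were higher and 1 lower, where 16.1% and 19.9% of all genes passed, and the median log2 difference was 0.78 for the members and 0.02 for all genes. During white adipogenesis, in Eff, 0 of 22 were higher and 2 lower, where 7.94% and 16.3% of all genes passed, and the median log2 difference was 0.06 for the members and -0.11 for all genes. Rab6a, Rab12, Rab14, Rab1b, Rab11a, Rab5c, Rab9, Rab5b, Rab1, Rab22a, Rab10 and Rab8a rose in brown Eff. Rab21 fell, at -0.64 ± 0.22 (SE, adjusted p = 0.0263). Voom called 9 higher and 0 lower, and the brown groups alone gave 10 and 0. The Rab22a call was lost with voom (adjusted p = 0.196), with the brown groups alone (0.0684) and with median-of-ratios scaling (0.0538). The Rab21 call was lost with voom (0.0819) and with the brown groups alone (0.0618). The day 0 side of these brown values rests on the shallow preadipocyte footprint libraries. Rab11b and Rab8a fell in white, Rab8a at -0.59 ± 0.21 (SE, adjusted p = 0.0482). The median log2 Eff of the members was -0.33 in brown preadipocytes, with 7 members above the all-gene median, and 0.49 in brown adipocytes, with 18. In white cells it was 0.38 at day 0 and 0.32 at day 5, in BAT -0.12 and in eWAT 0.20. Rab34 had the lowest member Eff in all 6 groups, from -1.99 to -1.38 on the log2 scale, and is named here after its values were seen. Its RPF was 63.5 and 53.1 RPKM in brown and 49.6 and 39.9 in white preadipocytes, 49.5 and 51.0 in adipocytes of the brown and 46.4 and 62.8 of the white lineage, 37.2 and 25.4 in BAT and 35.6 and 33.7 in eWAT. Its RNA was 149 and 154 RPKM in brown and 157 and 152 in white preadipocytes, and 171 and 166 in adipocytes of the brown and 170.2 and 186 of the white lineage. BAT had 125 and 123 and eWAT 136 and 133. The white calls of Eff rest on little: leaving out any of 14 of the libraries left 1 of the 2.

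**Figure D4:**
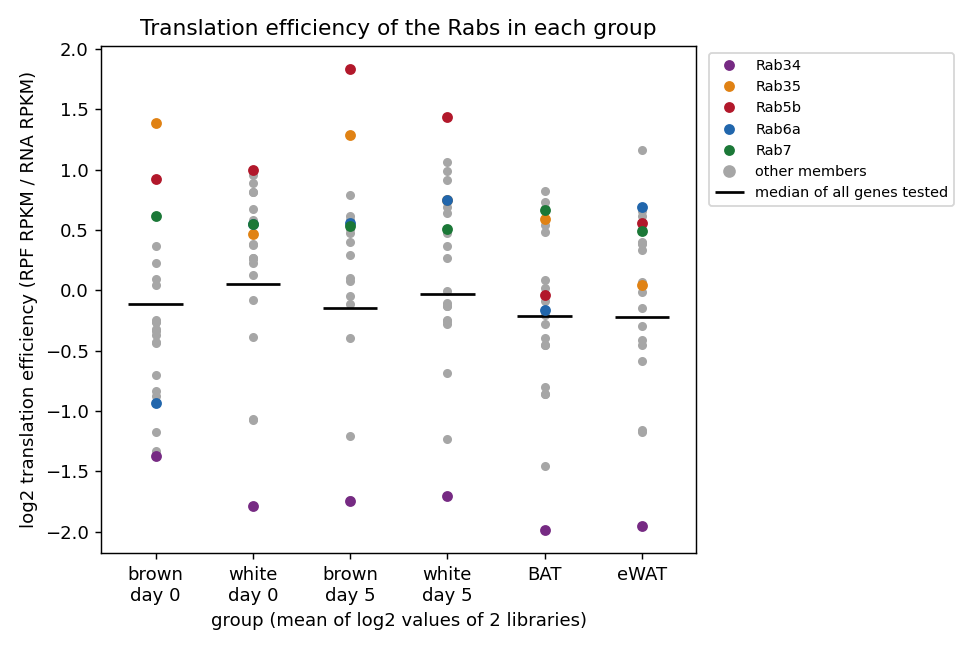
Log2 translation efficiency (y axis) of each of the 22 Rabs in the 6 groups (x axis). 5 Rabs are coloured and a black line marks the median of all 5035 genes. Each value is the log2 of the mean RPF RPKM over the mean RNA RPKM of 2 libraries. It is not the mean of log2 values that the axis names. Rab34 is lowest in each group, Rab5b is highest in both adipocyte groups, and Rab6a lies at -0.93 in brown preadipocytes against 0.55 in white.

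The proteins that work with Rabs were counted from lists of GDI, escort and prenyl transferase proteins, GEFs, GAPs, effectors and Glut4 vesicle proteins. In brown adipogenesis RPF the counts were 2 higher and 0 lower of 6 for GDI and escort proteins, 3 higher and 4 lower of 15 for GEFs, 3 higher and 4 lower of 11 for GAPs, 6 higher and 8 lower of 32 for effectors and 3 higher and 4 lower of 11 for Glut4 vesicle proteins. White RPF gave 0 higher and 1 lower of 6, 1 higher and 3 lower of 15, 1 higher and 5 lower of 11, 3 higher and 14 lower of 32 and 3 higher and 4 lower of 11 in the same order. Against the all-gene shares given above, none of these counts is read as particular to its list. Gdi2, which extracts Rabs from membranes, was lower in brown than in white preadipocyte RPF, at -0.73 ± 0.14 (SE, adjusted p = 0.00178). Rabggtb, a subunit of the enzyme that attaches the lipid anchor, was higher in BAT RPF by 0.84 ± 0.27 (SE, adjusted p = 0.0245).

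Dennd4c, an exchange factor of Rab10, rose in brown RPF by 1.82 ± 0.30 (SE, adjusted p = 0.000161) and in white RPF by 0.89 ± 0.30 (SE, adjusted p = 0.0242), and the changes did not differ by the test (0.93 ± 0.43 SE, adjusted p = 0.115). Trappc3, a subunit of the TRAPP exchange complex, rose in brown RPF by 1.03 ± 0.17 (SE, adjusted p = 0.000139), and Dennd5a fell in brown, -2.09 ± 0.26 (SE, adjusted p = 1.28e-05), and in white, -0.75 ± 0.26 (SE, adjusted p = 0.0278). Of the GAPs, Tbc1d2b fell in brown RPF (-4.02 ± 0.34 SE, adjusted p = 2.6e-07) and white RPF (-1.71 ± 0.34 SE, adjusted p = 0.000801), Tbc1d9b fell in brown RPF (-1.20 ± 0.28 SE, adjusted p = 0.00217), and Tbc1d20, which acts on Rab1, was higher in brown preadipocyte RPF (1.31 ± 0.27 SE, adjusted p = 0.00287). Of the genes on the effector list, Osbpl1a, which binds Rab7, rose in brown RPF (2.67 ± 0.24 SE, adjusted p = 5.18e-07) and white RPF (1.05 ± 0.24 SE, adjusted p = 0.0023). Sh3bp5, placed on that list here without a check of its role, fell in both, at -2.54 ± 0.31 (SE, adjusted p = 1.07e-05) and -2.48 ± 0.31 (SE, adjusted p = 2.02e-05). Kif1c fell in brown (-1.62 ± 0.23 SE, adjusted p = 4.84e-05) with -0.38 ± 0.23 (SE, adjusted p = 0.192) in white. Slc2a4, which encodes Glut4, rose by 5.46 ± 0.20 (SE, adjusted p = 8.71e-11) in brown and 3.94 ± 0.20 (SE, adjusted p = 4.6e-09) in white RPF. Tfrc, the transferrin receptor, rose by 2.39 ± 0.18 (SE, adjusted p = 1.19e-07) and 2.29 ± 0.18 (SE, adjusted p = 2.98e-07), and Lrp1 fell, -2.45 ± 0.14 (SE, adjusted p = 4.67e-09) and -1.05 ± 0.14 (SE, adjusted p = 2.95e-05), in the same order. Slc2a4 RNA rose by 8.45 ± 0.33 (SE, adjusted p = 6.43e-11) in brown and 9.79 ± 0.33 (SE, adjusted p = 1.64e-11) in white. Its brown change less its white one was 1.52 ± 0.28 (SE, adjusted p = 0.00181) in RPF and -1.34 ± 0.47 (SE, adjusted p = 0.0419) in RNA. Its Eff change was -2.99 ± 0.43 (SE) in brown and -5.85 ± 0.43 (SE) in white. The part of the day 5 excess in day 0 footprints in this was not tested.

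The promoters of 20 of the 22 members were matched by symbol in RefSeq on GRCm38.p6, as 250 bases before and 50 after a gene's start. Short motifs were searched on both strands, and matches may overlap. The E box was searched as CACGTG, the GC box as GGGCGG, the CCAAT box by the letters of its name, the CRE as TGACGTCA, the ETS motif as CCGGAAG and the TATA box by TATAAA. A GC box was in 14 of 20 members (70.0%) and in 38.2% of 27025 genes, and a CCAAT box in 11 members (55.0%) and 41.1% of genes. An ETS motif was in 4 members and 9.93% of genes, an E box in 2 and 8.09%, a TATA box in 1 and 15.7%, and the CRE in none and 2.03%. The 27025 genes are not limited to the 5035 complete in all libraries, from which the members come. These shares are therefore not matched for expression. The promoters of Rab1b, with the highest brown RPF rise, and of Rab32 and Rab4b, with the lowest RPF changes in brown and between tissues, are shown with motif letters in capitals, all on the minus strand. Rab1b lies at chr19:5106947-5107246, Rab32 at chr10:10558158-10558457 and Rab4b at chr7:27178834-27179133.
Rab1b: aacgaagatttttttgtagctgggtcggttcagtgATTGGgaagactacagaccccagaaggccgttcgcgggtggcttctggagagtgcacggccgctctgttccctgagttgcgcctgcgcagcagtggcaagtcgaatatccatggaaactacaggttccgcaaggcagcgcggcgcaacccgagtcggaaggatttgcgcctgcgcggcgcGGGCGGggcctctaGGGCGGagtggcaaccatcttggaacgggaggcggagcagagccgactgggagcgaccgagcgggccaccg
Rab32: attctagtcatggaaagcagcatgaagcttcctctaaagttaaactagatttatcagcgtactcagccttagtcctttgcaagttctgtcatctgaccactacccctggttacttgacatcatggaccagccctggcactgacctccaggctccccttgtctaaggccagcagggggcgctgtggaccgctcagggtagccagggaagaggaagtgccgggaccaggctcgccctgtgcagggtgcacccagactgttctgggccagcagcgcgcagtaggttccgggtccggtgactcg
Rab4b: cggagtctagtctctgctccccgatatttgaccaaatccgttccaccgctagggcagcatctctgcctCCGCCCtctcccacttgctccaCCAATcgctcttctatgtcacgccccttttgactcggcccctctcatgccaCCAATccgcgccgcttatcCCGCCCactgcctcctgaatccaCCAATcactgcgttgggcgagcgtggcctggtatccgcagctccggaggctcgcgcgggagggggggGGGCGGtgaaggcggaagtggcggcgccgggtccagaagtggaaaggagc
Rab1b held 1 CCAAT box and 2 GC boxes, Rab4b 3 of each, and Rab32 none of the motifs searched. A match is a description of these letters and not a site.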

How the data were processed

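RPF and RNA libraries were made from the same 6 groups. The authors trimmed reads with cutadapt 1.8.3, mapped them with TopHat2 2.0.9 and Bowtie 1.0.0 to the most abundant isoforms, and deposited RPKM over the coding sequence. The genome build is not given in the sources used here. Groups followed the sample labels. The 5035 genes above 0 in all 24 libraries were analysed as log2 RPKM without pseudocount by limma 3.58.1 with trend (R 4.3.3), 12 libraries for each assay. Eff was the difference between assays of a comparison, from 1 fit to all 24 libraries. P-values were adjusted by Benjamini-Hochberg at 0.05. The low RPKM values are multiples of 1 read: of 4846 genes with a coding length, 4771 gave whole reads in all libraries within 0.05, including all 22 Rabs, and these reads served voom. Alternatives were a pseudocount of 1, a minimum mean of 5 RPKM, median-of-ratios scaling, a replicate block, the groups of a comparison alone, each library left out, and, added after seeing the data, subtraction of a day 5 part from day 0 footprints. Values in every library are given for Rabs with a known adipocyte role (Rab10, Rab14, Rab8a, Rab4b, Rab7, Rab11a, Rab18), for the 2 highest and 2 lowest past the test in each RPF and RNA comparison, and for the highest and lowest in Eff. Up to 3 genes of each partner list are named, by smallest adjusted p in RPF. 1 gene that this rule names is not reported here. The members and lists were chosen with earlier results of these data known. Python 3.11.15 with pandas 2.3.3, numpy 2.4.6 and matplotlib 3.10.9 was used.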

Additional observations from a re-analysis of the deposited data

Results flagged for a closer look

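The change from day 0 to day 5 differed between the brown and the white lineage for several Rabs by limma's interaction test, with an adjusted p under 0.05 over 5035 genes and 2 libraries a group. Values are the brown log2 change minus the white one. In RPF they were Rab1 1.15, Rab10 1.55, Rab11a 1.75, Rab11b 1.07, Rab12 1.75, Rab14 1.56, Rab18 1.02, Rab1b 1.05, Rab4b -2.07, Rab5c 1.16, Rab6a 1.799, Rab8a 1.22 and Rab9 1.21. In RNA they were Rab1 0.51, Rab10 0.77, Rab11a 0.73, Rab14 0.47, Rab18 0.72, Rab1b -0.45, Rab21 0.64, Rab24 0.48, Rab2a 0.55 and Rab4b -0.92. In Eff they were Rab11b 1.09, Rab12 1.46, Rab14 1.08, Rab1b 1.502, Rab5c 1.36, Rab6a 1.34 and Rab8a 1.34. The Eff call of Rab14 was lost in 24 alternatives, among them voom, median-of-ratios scaling, the replicate block and 20 of 24 left-out libraries, and that of Rab5c in 15. With voom the Eff calls of Rab12 (adjusted p = 0.0649) and Rab6a (0.0816) were lost too. That of Rab6a was also lost without white adipocyte RNA replicate 2, and that of Rab11b in 3 alternatives, each leaving out an RNA library. The RPF call of Rab4b was lost in 12. Of the Rabs that passed in both RPF and RNA, Rab1b is the one whose difference is above 0 in footprints and below 0 in RNA, and each of its calls was lost in 6 alternatives. The brown preadipocyte footprint libraries, which enter each RPF and Eff value, are the shallowest of the series.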

How the results depend on the processing

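A brown preadipocyte Rab footprint value rests on 4 to 59 reads, and the SE of a gene is shared by deep and shallow libraries. With voom on the recovered reads, 8 members passed in RPF at day 0 between the lineages in place of 13, 6 in RPF at day 5 in place of 2, and in Eff 4 in the lineage comparison in place of 7, 1 in white adipogenesis in place of 2, 1 at day 5 and 1 between the tissues in place of 0, with 1 in RNA at day 0 in place of 0. With the groups of a comparison fitted alone, 6 passed in RNA between the tissues in place of 10, 3 in RNA at day 0, 6 in RPF at day 5 and 1 in Eff at day 5. Median-of-ratios scaling left 6 of 11 in white RPF and 1 of 2 in white Eff, and a pseudocount of 1 gave 1 in RNA at day 0. Under that scaling the RNA values of Rab10 (0.26), Rab24 (0.0441), Rab7 (0.0418) and Rab8a (0.0169) in white adipogenesis and of Rab11b between the tissues (0.0435) changed sign, as did the tissue RNA value of Rab18 without BAT replicate 1 (-0.26, against 0.38 without BAT replicate 2). The cause was not tested. The labels do not say that a replicate number marks a shared culture or pool, and a replicate block gave 4 calls in RPF at day 5, 1 in Eff between the tissues and 1 in white Eff, with 3 member values gained and 6 lost. Deviations of same-numbered libraries from their group means correlated at r = -0.07 to 0.02 between footprint groups and at -0.33 to 0.36 between RNA groups. Leaving out each library in turn gave, for brown adipogenesis, white adipogenesis, day 0, day 5, lineage by day and the tissues in that order, 11 to 13, 7 to 13, 7 to 13, 0 to 5, 9 to 12 and 3 to 8 members in RPF. The ranges were 13 to 14, 15 to 20, 0 to 2, 10 to 14, 5 to 13 and 9 to 13 in RNA, and 9 to 14, 1 to 2, 11 to 14, 0 to 2, 3 to 8 and 0 to 2 in Eff. Of the member values, a minimum mean RPKM of 5 moved 1 across the threshold and the subtraction of the day 5 part, chosen after seeing the data, moved 3.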
